A study of Mus musculus with 22 samples.

Results

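The clustered protocadherins are cell surface adhesion proteins whose genes stand side by side in 3 clusters on mouse chromosome 18. Members were taken by name: the protein-coding entries of the count tables whose GRCm38 symbol is Pcdha, Pcdhb, Pcdhga, Pcdhgb or Pcdhgc with a number, or Pcdhac1 or Pcdhac2. This gave 57 of the 34585 entries in each table. They are 12 alpha, 22 beta, 12 gamma A and 6 gamma B genes and the 5 C-type genes Pcdhac1, Pcdhac2, Pcdhgc3, Pcdhgc4 and Pcdhgc5. In GRCm38 with GENCODE annotation, the alpha cluster spans chr18:36930184-37187661, the beta cluster chr18:37264938-37524479 and the gamma cluster chr18:37661793-37841873, and all 57 members lie on the plus strand.

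In neurons, each alternate promoter of these clusters is switched on or off with an element of chance, in a process that depends on CTCF, cohesin and DNA methylation, while the C-type genes are used more evenly from cell to cell. The proteins bind like to like between neighbouring membranes, and mixed complexes of them let a neurite tell its own branches from those of other cells. In the alpha and gamma clusters, each first exon encodes a whole extracellular part and is spliced to 3 constant exons at the 3′ end of the cluster. Beta genes have a single coding exon and no shared end.

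The study tested whether carrying the Tol transgene changes expression in the thymus and brain of mice. The Tol open reading frame encodes fragments of reporter proteins in scrambled order. It is driven by the ubiquitous CAG promoter and was placed 3′ of Col1a1 by cassette exchange in embryonic stem cells. Bulk RNA-seq was made from Tol mice, heterozygous for the transgene, and from WT littermates without it, all on C57BL/6. Each genotype gave 4 thymi and 4 cerebra, whereas cerebella came from 4 WT and only 2 Tol samples. Mice were 7 to 14 weeks old, a range the methods give for all animals and not by group. The 22 libraries held 14543698 to 34776973 estimated counts each, so that 3 counts, taken as the detection floor, were worth 0.0745 to 0.234 CPM (the count scaled to library size). All p-values measure the spread between these libraries. In bulk tissue, fewer cells of a type and less RNA per cell cannot be told apart.

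The shared 3′ exons limit what a count says. The median member of the alpha cluster had 46.6% of its exon bases to itself, and the median gamma member 55.5%, whereas the median beta member had 100%. Reads from the shared exons were divided among genes by estimation before deposit, so the split between alpha members, and between gamma members, is uncertain. The lowest share by gene was 33.2%, in Pcdhga4. Pcdhgc4 had 62.1% of its exon bases to itself, but of a shorter annotated protein-coding transcript of 2272 bases only 6.7% is its own. Genes on the opposite strand also overlap Pcdha4, Pcdha6, Pcdha12, the Pcdha11 entry ENSMUSG00000102206, Pcdhb12, Pcdhga1, Pcdhga7, Pcdhga8, Pcdhga10, Pcdhga11, Pcdhga12, Pcdhgb7 and Pcdhgc3. The libraries were made with a stranded mRNA kit, but the sources used here do not say whether strand was used in counting. Both ENSMUSG00000007440 and ENSMUSG00000102206 carry the symbol Pcdha11. The first lies where RefSeq, on the same build, places Pcdha10, and both are kept here under their identifiers.

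The Tol transcript was at 19.8 to 25.4 CPM in Tol thymus and at 0 to 0.0484 CPM in WT thymus. It was at 147 to 174 CPM in Tol cerebrum, at 191 and 140 CPM in the Tol cerebella, and at most 0.120 CPM in any WT brain. The genotype labels and this transcript therefore match in every library. Not every cerebellum matched its tissue label. The summed level of 8 granule cell markers was 5430, 3061, 6906 and 5680 CPM in WT cerebella 1 to 4 and 7260 CPM in Tol cerebellum 1, but 235 CPM in Tol cerebellum 2, within the 105 to 242 CPM of the cerebra. For 8 Purkinje cell markers, Tol cerebellum 2 had 1166 CPM and the other cerebella 4228 to 10460 CPM. Tol cerebellum 2 also had 473 CPM of 8 thalamus and midbrain markers, against 73.6 to 240 CPM in the other cerebella. Its 8 forebrain markers summed to 67.6 CPM, below the 75.8 to 140 CPM of the other cerebella. In the cerebra they summed to 693 to 776 CPM. WT cerebellum 2 was the lowest of the other 5 on both cerebellar lists and had 16680 CPM of oligodendrocyte markers, against 4411 to 9040 CPM. Choroid plexus markers reached 1319 and 4755 CPM in WT cerebella 2 and 4 and at most 18.9 CPM in the other 4. How the cerebellar results moved without Tol cerebellum 2 or WT cerebellum 2 is given beside them.

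Levels of different members were compared per length, as CPM per kilobase of the longest protein-coding transcript. In WT cerebrum, the family as a whole summed to 281 ± 13.2 CPM per kilobase (SD, n = 4), and the 5 C-type genes made up 44.7% ± 2.73 of it. In WT cerebellum the sum was 264 ± 46.5 CPM per kilobase (SD, n = 4), of which the C-type genes held 39.0% ± 2.93. WT cerebellum 2 had the lowest sum, at 203 CPM per kilobase, and the other 3 reached up to 301. Without it the sum was 284 ± 28.6 CPM per kilobase (SD, n = 3) and the C-type share 40.5% ± 0.417. Gamma A genes held 21.3% ± 1.65 of the sum in cerebrum and 24.3% ± 1.27 in cerebellum. Gamma B genes held 7.08% ± 0.648 and 11.95% ± 0.294, with no overlap between the groups. Alpha genes outside the C-type held 10.01% ± 0.530 and 6.60% ± 0.622, again with no overlap. Beta genes held 16.9% ± 1.06 and 18.1% ± 1.53, and their ranges overlapped. Without WT cerebellum 2 the cerebellar shares were 23.8% for gamma A, 11.9% for gamma B, 6.40% for alpha and 17.4% for beta. These shares depend on the length used. With the C-type genes counted in their clusters, alpha and beta held 17.3% and 16.9% in WT cerebrum, and 24.2% and 11.9% when counts were divided by unshared exon bases. The gamma cluster had the largest share under each of the 4 length choices, at 61.8% to 65.8% in WT cerebrum and 65.9% to 69.8% in WT cerebellum.

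**Figure D1:**
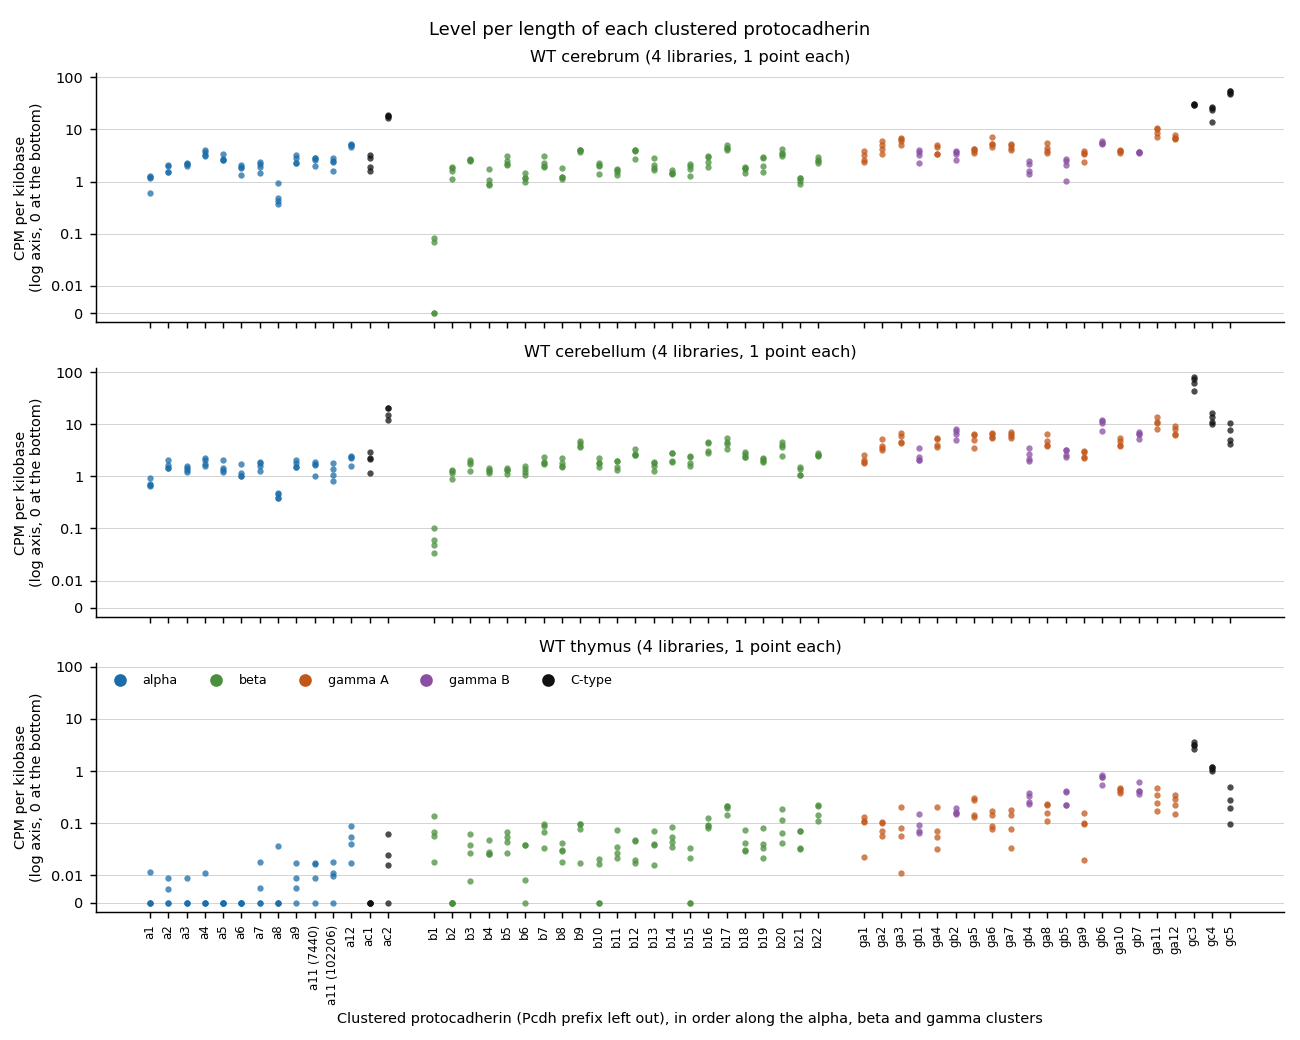
Level per length (CPM per kilobase, log axis with 0 at the bottom) of the 57 members in order along the 3 clusters, 1 point per WT library, in cerebrum, cerebellum and thymus. By mean level, the C-type genes Pcdhac2, Pcdhgc3 and Pcdhgc4 stand above the alternate genes beside them in both brain regions, and Pcdhgc5 does so in cerebrum. In cerebellum the points of Pcdhgc4 and Pcdhga11 overlap. In thymus most alpha genes lie at or near 0 (bracketed digits at the labels of a11 end the identifiers).

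**Figure D2:**
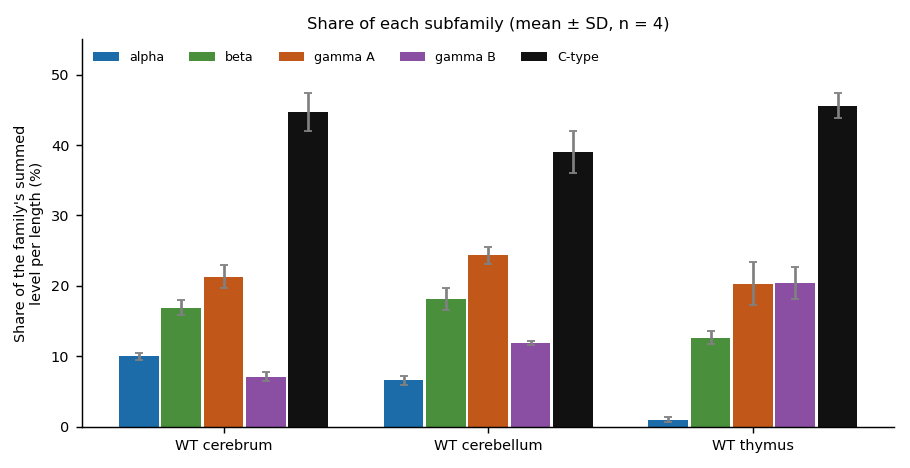
Share of each subfamily in the summed level per length of the family (percent, mean ± SD, n = 4 WT libraries per organ). Gamma B holds 7.08% in cerebrum, 11.95% in cerebellum and 20.5% in thymus, and alpha without the C-type genes 10.01%, 6.60% and 1.03%.

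Pcdhgc5, a gamma C-type gene, had the highest level of the family in WT cerebrum, at 52.0 ± 3.76 CPM per kilobase (SD, n = 4). It was followed by Pcdhgc3, required for the branching of cortical dendrites, at 30.5 ± 0.740. Pcdhgc4, whose loss alone is known to cause the death of interneurons, came next at 22.7 ± 6.05. Pcdhac2, the C-type gene that guides the even spread of serotonergic axons, was at 18.01 ± 1.07. The ranges of Pcdhgc4 and Pcdhac2 overlapped, so their order is not settled. By this length, Pcdhgc5 lay above Pcdhgc3, and Pcdhgc3 above Pcdhgc4, in every library. The order of such genes also depends on the length used. Pcdhgc5 has 5508 unshared exon bases and Pcdhgc3 3380, whereas their longest protein-coding transcripts have 4741 and 4687 bases. Orders by other lengths are not given here. Pcdhac1, the remaining C-type gene, was at 2.42 CPM per kilobase, among the alternate genes. In WT cerebellum the order was different. Pcdhgc3 was highest at 65.1 ± 17.0 CPM per kilobase (SD, n = 4), Pcdhac2 came next at 17.0 ± 3.87, Pcdhgc4 was at 12.8 ± 2.75, and Pcdhgc5 was at 6.84 ± 2.96, below the means of Pcdhga11 and Pcdhgb6. Pcdhgc3 lay above Pcdhac2 in every cerebellum, but Pcdhac2, at 12.3 to 20.3, and Pcdhgc4, at 10.1 to 16.2, overlapped, so the order of these 2 genes is not settled here either.

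The alternate genes of WT cerebrum spanned a wide range. The highest over the lowest level was 2.87 in gamma B, 3.01 in gamma A, 8.95 in alpha and 116.5 in beta, where Pcdhb1 was near the floor, beside 21.5 among the C-type genes. The highest alpha gene was Pcdha12 at 4.99 CPM per kilobase and the highest beta gene was Pcdhb17 at 4.47. Pcdhga11 led gamma A at 9.07 and Pcdhgb6 led gamma B at 5.52. The same genes led in WT cerebellum, at 2.15, 4.37, 10.9 and 10.3 CPM per kilobase in that order. At the low end, Pcdhb1 was at 0.0383 CPM per kilobase in WT cerebrum and had 0 to 4 counts in each WT cerebrum, and Pcdha8 was next lowest at 0.557. Of the 57 members, 56 had at least 3 counts in every WT cerebrum, Pcdhb1 being the exception. Of the 56 neighbour pairs in the order of levels, 4 had ranges that did not overlap in WT cerebrum and 3 in WT cerebellum. The order of most neighbours therefore cannot be read from these libraries, while genes farther apart in level were not compared in this way.

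WT cerebellum was next compared with WT cerebrum, gene by gene, with edgeR's quasi-likelihood test over 15877 genes. Of the 56 members tested, 19 changed at an adjusted p under 0.05, 7 higher and 12 lower in cerebellum. Over all genes tested 49.8% were called, 25.6% higher and 24.2% lower, so the members were not called more often than genes at large. The median log2 difference was -0.09 for the members and 0.04 for all genes, and the former ranged from -0.186 without WT cerebellum 1 to -0.007 without WT cerebellum 2. All cerebellar libraries lay above all cerebral ones for 7 members and below them for 9, beside 24.3% and 23% of all genes. Pcdhb1 did not pass the filter on low counts. Of the 12 alternate alpha genes, 7 were lower in cerebellum, none was higher, and all 12 fitted differences were negative (median -0.62 on the log2 scale). Of the 6 gamma B genes, 3 were higher and none was lower (median 0.61). Among 21 beta genes tested, 2 were higher and 2 lower (median 0.02). Among 12 gamma A genes, 1 was higher and 1 lower (median 0.14). Of the 5 C-type genes, 1 was higher and 2 were lower. Because alpha members share 3′ reads, and gamma members likewise, the calls and signs within each of these clusters are not separate observations.

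**Figure D3:**
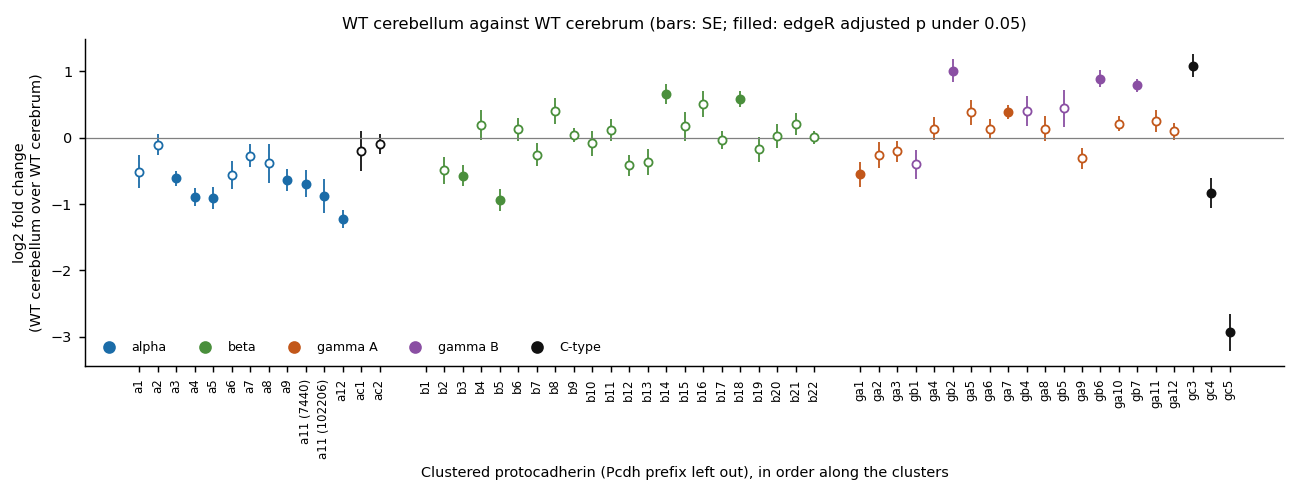
Log2 fold change (WT cerebellum over WT cerebrum, bars SE) of the 56 members tested, in order along the clusters. Filled points have an edgeR adjusted p under 0.05, and all 12 alternate alpha genes lie below 0 while Pcdhgc3 at 1.08 and Pcdhgc5 at -2.93 mark the extremes of the family.

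The C-type genes moved in different directions. Pcdhgc5 was at 232, 258, 265 and 230 CPM in the WT cerebra and at 50.5, 19.4, 36.3 and 23.5 CPM in the WT cerebella. Every cerebellum was therefore far below every cerebrum. The log2 difference was -2.93 ± 0.28 (SE), with an edgeR adjusted p of 7.0e-05. Pcdhgc3 was at 141, 139, 147 and 145 CPM in the WT cerebra and at 348, 200.5, 382 and 290 CPM in the WT cerebella, without overlap. It was higher in cerebellum by 1.08 ± 0.17 on the log2 scale (SE, edgeR adjusted p = 0.00105). The cerebellum with the least Pcdhgc3 was WT cerebellum 2, the WT library with the lowest granule cell and Purkinje cell markers, and without it the log2 difference was 1.22. Pcdhgc4 was at 70.0, 138.5, 118 and 129 CPM in the cerebra and at 68.6, 50.9, 55.6 and 81.5 CPM in the cerebella. WT cerebrum 1 overlapped the cerebella. Pcdhgc4 fell by 0.84 ± 0.22 on the log2 scale (SE, edgeR adjusted p = 0.0136). The 2 alpha C-type genes were not called. Pcdhac2 was at 97.0 to 111 CPM in cerebrum and at 72.6 to 119 CPM in cerebellum (log2 difference -0.09 ± 0.15 SE, edgeR adjusted p = 0.641). Pcdhac1 was at 8.73 to 17.8 CPM and at 6.32 to 15.7 CPM (log2 difference -0.20 ± 0.30 SE, edgeR adjusted p = 0.610). The sign for Pcdhac2 turned when WT cerebellum 2 was left out, with a log2 difference of 0.02.

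**Figure D4:**
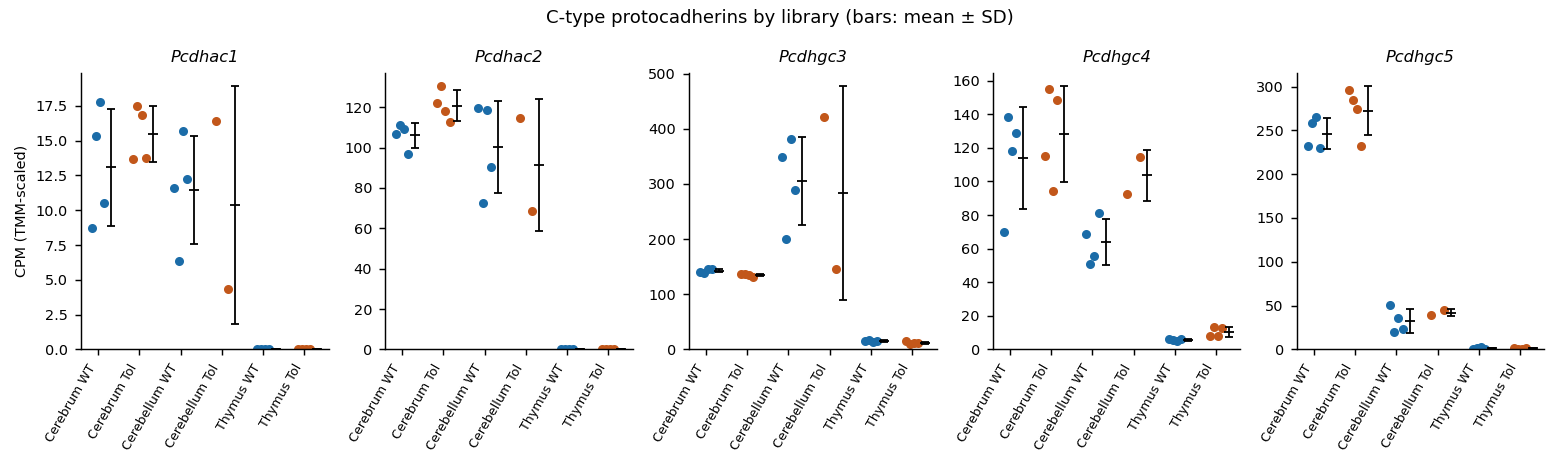
CPM of the 5 C-type genes in each of the 22 libraries (points, blue WT, orange Tol), with mean ± SD at the right of each group. Pcdhgc5 separates cerebrum from cerebellum, and Pcdhgc3 is higher in 5 of the 6 cerebella. For Pcdhgc3, Tol cerebellum 2 lies with the cerebra at 146 CPM, whereas for Pcdhgc5 it lies with the cerebella at 44.4 CPM.

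Among alternate alpha genes, which encode cadherin repeats joined to a shared cytoplasmic end, Pcdha12 had the lowest p. It was at 27.1, 27.8, 26.8 and 24.8 CPM in WT cerebrum and at 12.3, 8.41, 12.1 and 13.0 CPM in WT cerebellum. The groups did not overlap, and the log2 difference was -1.23 ± 0.13 (SE, edgeR adjusted p = 0.000127). Pcdha4 ranged from 16.6 to 21.7 CPM in cerebrum and from 8.45 to 12.1 CPM in cerebellum (log2 difference -0.89 ± 0.14 SE, edgeR adjusted p = 0.000908). For Pcdha5 the ranges were 13.4 to 17.2 and 6.45 to 10.5 CPM (log2 difference -0.90 ± 0.17 SE, edgeR adjusted p = 0.0021). Pcdha3, Pcdha9 and both entries named Pcdha11 were lower as well, by log2 differences of -0.61 to -0.88. The other 5 alternate alpha genes were not called.

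Gamma B was the subfamily with the most members higher in cerebellum. Pcdhgb7 was at 17.7, 16.5, 17.4 and 17.1 CPM in WT cerebrum and at 30.8, 25.0, 33.8 and 30.1 CPM in WT cerebellum. The log2 difference was 0.79 ± 0.10 (SE, edgeR adjusted p = 0.000257). Pcdhgb6, the gamma B gene with the highest level, was at 24.3 to 27.7 and 35.4 to 55.5 CPM (log2 difference 0.89 ± 0.13 SE, edgeR adjusted p = 0.000694). Pcdhgb2 was at 11.99 to 18.3 and 23.7 to 38.1 CPM (log2 difference 1.01 ± 0.17 SE, edgeR adjusted p = 0.00145). In all 3 genes each cerebellum lay above each cerebrum, and WT cerebellum 2 was the lowest cerebellum. Without that library the log2 differences were 0.85, 0.995 and 1.11.

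Single-exon beta genes went both ways. Pcdhb18 was at 7.25 to 9.49 CPM in cerebrum and 11.7 to 14.7 CPM in cerebellum (log2 difference 0.58 ± 0.12 SE, edgeR adjusted p = 0.00397), and Pcdhb5 was at 7.37 to 11.2 and 3.88 to 5.01 CPM (log2 difference -0.94 ± 0.17 SE, edgeR adjusted p = 0.00167). Neither pair of groups overlapped. Pcdhb14 was also higher, by 0.66, and Pcdhb3 lower, by a log2 difference of -0.57. Since beta transcripts share no constant exon, their counts do not depend on how such reads were split. In gamma A, Pcdhga7 was higher by 0.39 and Pcdhga1 lower, with a log2 difference of -0.55. Of the 19 calls, 13 were kept under all 18 alternatives tried, and Pcdhga1 was lost under 9 of them. Without WT cerebellum 2, 20 members were called, 9 higher and 11 lower, beside 8484 of 15993 genes, 4144 higher and 4340 lower. Apart from Pcdhga1, each of the 19 was called in that fit too, with the same sign. There Pcdhgc5 was at -2.77, Pcdhgc4 at -0.76, Pcdha12 at -1.12, Pcdha4 at -0.83, Pcdha5 at -0.90, Pcdhb5 at -1.01 and Pcdhb18 at 0.59 on the log2 scale. The part of the cell type differences above in these changes was not tested.

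The thymus holds few neurons, and 8 pan-neuronal markers summed to 26.0 to 37.8 CPM in WT thymus against 7611 to 9561 CPM in WT cerebrum. The family was at a low level there too. Its sum was 10.1 ± 1.11 CPM per kilobase in WT thymus (SD, n = 4), 27.9-fold below cerebrum and 26.1-fold below cerebellum, or 28.1-fold without WT cerebellum 2. By comparison, the neuronal marker list was 287-fold and 204-fold lower. By subfamily, alternate alpha genes were 268-fold lower in thymus than in cerebrum, beta genes 37.3-fold, gamma A genes 28.8-fold, C-type genes 27.4-fold and gamma B genes 9.70-fold. The alpha figure rests on 6 to 19 counts per WT thymus over all 12 genes, and the gamma B figure on 195 to 297 counts over 6 genes.

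Pcdhgc3 was the most abundant member in WT thymus, at 15.2, 17.0, 12.5 and 14.7 CPM (3.17 ± 0.392 CPM per kilobase, SD, n = 4). Pcdhgc4 was second at 6.01, 5.42, 5.07 and 6.07 CPM (1.12 ± 0.0959 CPM per kilobase), with no overlap with Pcdhgc3 or with the gene after it, Pcdhgb6. Together with Pcdhgc5, the C-type genes made up 45.6% ± 1.77 of the sum and gamma B genes 20.5% ± 2.30. The highest alternate gene of each subfamily was Pcdhgb6 at 0.725 CPM per kilobase, Pcdhga10 at 0.431, Pcdhb17 at 0.193 and Pcdha12 at 0.0496. Of the 12 alternate alpha genes, 9 were under 3 counts in every WT thymus, as was the C-type gene Pcdhac1. Pcdhac1, Pcdha5, Pcdha6 and Pcdhb2 had 0 counts in all 4 WT thymi. Against a floor of 3 counts per library, Pcdhac1 was at least 98.6-fold lower in thymus than in cerebrum and at least 86.3-fold lower than in cerebellum. For Pcdha5, Pcdha6 and Pcdhb2 the bounds against cerebrum were 111-fold, 72.5-fold and 34.6-fold.

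In edgeR's test, all 56 members that passed the filter were lower in WT thymus than in WT cerebrum, where 86.5% of 16851 genes were called, 41.4% lower and 45.1% higher. All 56 were also lower in thymus than in WT cerebellum, where 83.9% of 17309 genes were called, 41.0% lower and 42.8% higher. Most of these members passed the filter only through their brain counts, so the count says little of itself. With at least 10 counts required in every library, 15 members were left in each comparison and all 15 were lower. In these fits, 11390 of 13222 genes were called against cerebrum, 5621 of them lower. For cerebellum 11281 of 13501 genes were called, 5666 of them lower. Against cerebrum, the 5 members of lowest p were Pcdhgc3, Pcdhac2, Pcdhb17, Pcdha12 and Pcdhga10. Of these, Pcdhgc3, Pcdhb17 and Pcdhga10 had 18 counts or more in each WT thymus, with log2 differences of -3.24, -4.53 and -3.13 and edgeR adjusted p from 2.0e-10 to 1.3e-09. Pcdhac2 had 0 to 12 counts and Pcdha12 2 to 9 in each WT thymus, so no fitted fold is given for them. Against cerebellum the 5 were Pcdhgb2, Pcdhga6, Pcdhac2, Pcdhb18 and Pcdhga2. Pcdhgb2, with 14 to 30 counts in each WT thymus, had a log2 difference of -5.30 (edgeR adjusted p = 2.7e-09), or -5.42 without WT cerebellum 2. Pcdhga6, Pcdhb18 and Pcdhga2 had 3 to 16 counts in each WT thymus. For Pcdhgc5 and Pcdhgc4, the log2 differences from cerebrum were -7.68 ± 0.32 and -4.30 ± 0.22 (SE). From cerebellum they were -4.71 ± 0.48 and -3.46 ± 0.16 (SE), and that of Pcdhgc3 was -4.32 ± 0.21. Without WT cerebellum 2 these were -4.91, -3.56 and -4.48.

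Tol and WT libraries were then compared within each organ. No member was called in any organ by edgeR. In thymus, 19 members were tested and 0 were called, beside 0.0985% of 16248 genes (16 genes, the Tol transcript left out). At an unadjusted p under 0.05 there were 3 members, beside 24.4% of all genes, and DESeq2 called 1, beside 7.98%. In cerebrum, 56 members were tested and 0 were called, as were 0% of 15596 genes, with 4 members under an unadjusted p of 0.05, beside 9.66% of all genes, and 0 called by DESeq2, beside 1.2%. In cerebellum, 56 members were tested and 0 were called, as were 0% of 16662 genes, with 1 member under an unadjusted p of 0.05, beside 3.16% of all genes, and 0 called by DESeq2, beside 0.054%. Medians of the members were -0.22, 0.09 and 0.06 on the log2 scale in thymus, cerebrum and cerebellum, and those of all genes 0.007, -0.0049 and 0.0105. The members' medians moved when a library was left out. In thymus they ranged from -0.31 without WT thymus 4 to -0.098 without WT thymus 2, and in cerebrum from 0.037 without WT cerebrum 4 to 0.13 without WT cerebrum 3. In cerebellum the sign turned, with -0.017 without WT cerebellum 2 and 0.19 without Tol cerebellum 2. The family sum was 9.41 ± 0.827 CPM per kilobase in Tol thymus and 296 ± 9.50 in Tol cerebrum (SD, n = 4), and it overlapped WT in both organs. In the Tol cerebella it was 322 and 213 CPM per kilobase.

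**Figure D5:**
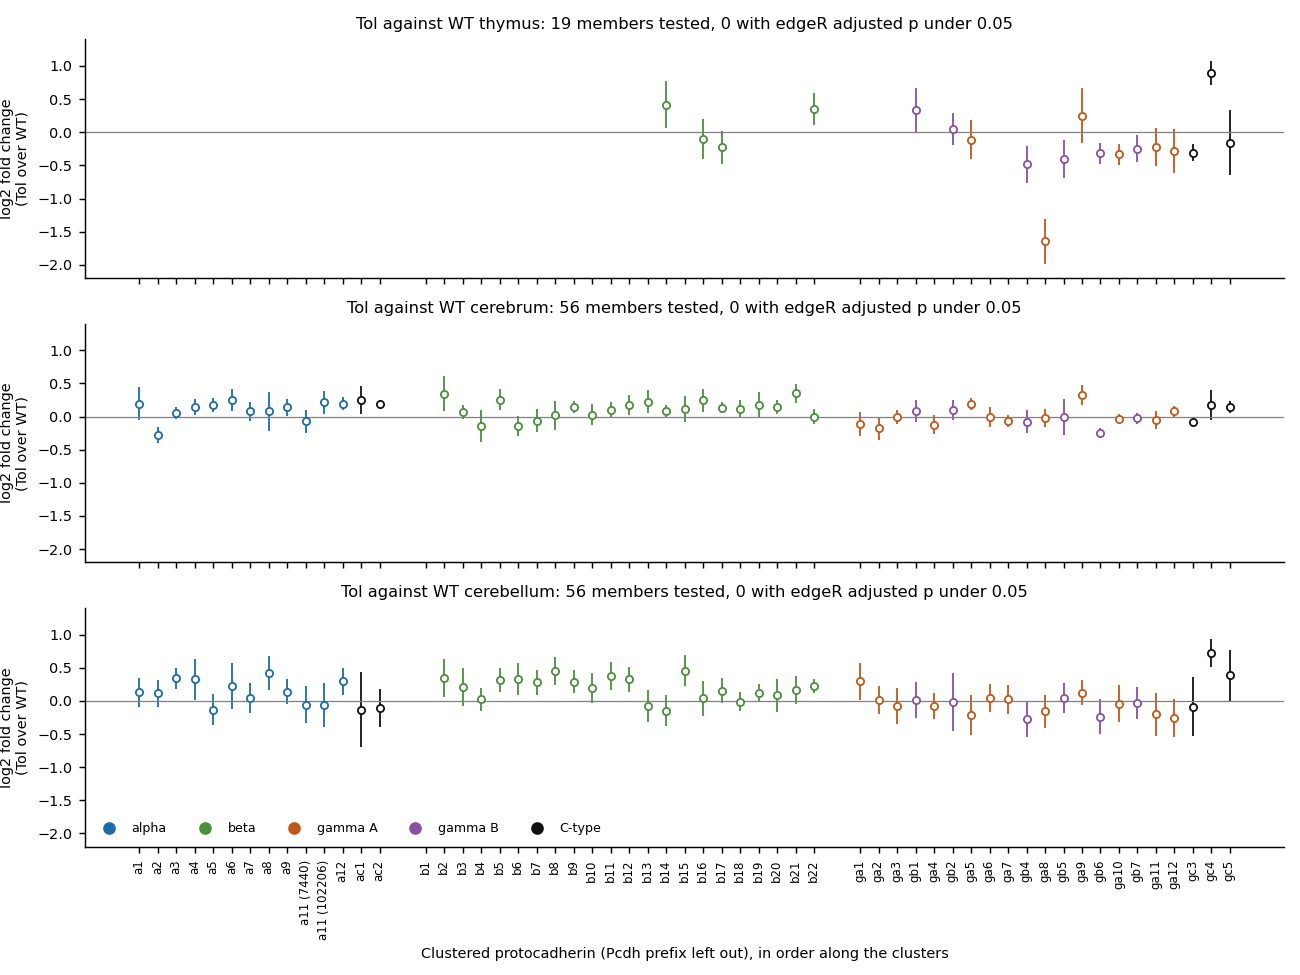
Log2 fold change (Tol over WT, bars SE) of the members tested in thymus (19), cerebrum (56) and cerebellum (56), in order along the clusters. No point passed an edgeR adjusted p of 0.05, and Pcdhgc4 at 0.89 and Pcdhga8 at -1.65 in thymus lie farthest from 0.

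In thymus, Pcdhgc4 and Pcdhga8 had the lowest p. Without overlap, 1 of the 19 members was above WT and 2 were below, beside 6.11% and 5.5% of all genes. Pcdhgc4 was at 8.04, 13.6, 7.90 and 12.6 CPM in Tol thymus, above each of the 4 WT values given earlier. The log2 difference was 0.89 ± 0.18 (SE, edgeR adjusted p = 0.0687), and the adjusted p ranged from 0.000851 with DESeq2 to 0.217 over the alternatives. The gamma cluster as a whole summed to 8.15 ± 0.798 CPM per kilobase in Tol thymus and 8.68 ± 0.904 in WT thymus (SD, n = 4). The part of the split of shared 3′ reads between Pcdhgc4 and other gamma members was not tested. Pcdhga8, a gamma A gene, was at 0.273, 0.138, 0.369 and 0.296 CPM in Tol thymus and at 1.08, 1.11, 0.517 and 0.747 CPM in WT thymus. The groups did not overlap, but these values rest on 3 to 11 counts per Tol library and 10 to 25 per WT library. The log2 difference was -1.65 ± 0.34 (SE, edgeR adjusted p = 0.0687, range over the alternatives 0.0211 to 0.223). Pcdhgc3 had Tol values of 14.8, 9.90, 11.3 and 11.5 CPM beside a WT range of 12.5 to 17.0 CPM (log2 difference -0.31 ± 0.13 SE, edgeR adjusted p = 0.167). Its groups overlapped through Tol thymus 1. Without Tol thymus 1, the deepest library, edgeR called 3 members, namely Pcdhgc4 at 1.02, Pcdhga8 at -1.64 and Pcdhgc3 at -0.43 on the log2 scale. These were 3 of 22 members tested, or 13.6%, while 18.2% of all genes were called in the same fit. Beside these values, 7 fibroblast markers summed to 193 to 280 CPM in the Tol thymi and to 252 to 415 CPM in their WT counterparts, and 6 thymic epithelium markers to 638 to 722 CPM and 618 to 658 CPM in that order. Thymocyte markers spanned 6511 to 8379 CPM with the transgene and 8052 to 9467 CPM without it. Groups did not overlap for skeletal muscle markers, at 20.1 to 22.9 CPM beside 15.8 to 18.9 CPM, nor for astrocyte, oligodendrocyte and choroid plexus markers, which were lower in Tol. Their part in the differences was not tested.

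The remaining members of lowest p in thymus showed smaller differences. They were Pcdhb22 at 0.35, Pcdhb14 at 0.42, Pcdhgb1 at 0.33 and Pcdhga9 at 0.25 on the positive side, and Pcdhga10 at -0.34, Pcdhgb6 at -0.32 and Pcdhgb4 at -0.48 on the negative side, with edgeR adjusted p from 0.223 to 0.753. Pcdhgc5 spanned 0.410 to 1.61 CPM in the Tol thymi and 0.448 to 2.38 CPM in the others (log2 difference -0.16 ± 0.49 SE, edgeR adjusted p = 0.874). The spread was wide for these genes at this depth. The median coefficient of biological variation was 22.8% for the members and 10.3% for all genes tested.

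In cerebrum, Pcdhac2 had Tol values of 122, 130, 118 and 112.5 CPM and WT values of 107, 111, 109 and 97.0 CPM. The groups did not overlap and the log2 difference was 0.19 ± 0.06 (SE, edgeR adjusted p = 0.383). Pcdhgb6 was at 22.8, 20.6, 23.1 and 20.5 CPM in Tol, below the WT range of 24.3 to 27.7 CPM (log2 difference -0.25 ± 0.07 SE, edgeR adjusted p = 0.324). Pcdhgc3 spanned 131 to 137 CPM with the transgene and 139 to 147 CPM without it, again without overlap (log2 difference -0.08 ± 0.05 SE, edgeR adjusted p = 0.622). Pcdhb21 was the only other member without overlap, with a log2 difference of 0.35. That made 2 members above and 2 below, beside 3.29% and 3.17% of all genes. Other low-p members were Pcdhga9 at 0.32, Pcdhga5 at 0.19 and Pcdha12 at 0.19 on the positive side and Pcdha2 at -0.28, Pcdhga2 at -0.18 and Pcdhb6 at -0.15 on the negative side. The fitted difference was positive for 10 of 12 alternate alpha genes, 17 of 21 beta genes, 3 of 12 gamma A genes and 2 of 6 gamma B genes. None of them was called, and the median of all genes tested was -0.0049. Alpha members, and likewise gamma members, share 3′ reads, so their signs are not separate observations. The C-type genes Pcdhac1, Pcdhgc4 and Pcdhgc5 had log2 differences of 0.25 ± 0.21, 0.17 ± 0.23 and 0.15 ± 0.09 (SE), with edgeR adjusted p from 0.629 to 0.856.

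In cerebellum, 7 of the 56 members tested had both Tol values above every WT value and 0 had both below, beside 5.21% and 5.26% of all genes. These counts rest in part on Tol cerebellum 2, whose granule cell markers lay within the range of the cerebra. No such count is given without it, since 1 Tol library would remain. Pcdhgc4 was at 92.8 and 114.5 CPM in the Tol libraries, above the 50.9 to 81.5 CPM of WT. The log2 difference was 0.72 ± 0.21 (SE, edgeR adjusted p = 0.957), 0.53 without Tol cerebellum 2 and 0.43 without both Tol cerebellum 2 and WT cerebellum 2. Pcdhgc3 was far apart in the 2 Tol libraries, at 421 CPM in Tol cerebellum 1, above every WT cerebellum, and 146 CPM in Tol cerebellum 2, below every WT cerebellum. Its log2 difference was -0.09 ± 0.45 (SE) with both libraries and 0.46 without Tol cerebellum 2. Pcdhac1, at 16.4 and 4.31 CPM, and Pcdhac2, at 115 and 68.5 CPM, were also higher in Tol cerebellum 1 than in Tol cerebellum 2. For Pcdhac2, Tol cerebellum 1 lay within the WT range of 72.6 to 119 CPM. Pcdhgc5 was at 39.0 and 44.4 CPM, within the WT range. The other members of lowest p were Pcdhb8 at 0.45, Pcdha3 at 0.34, Pcdhb22 at 0.23 and Pcdhb15 at 0.45 on the positive side. On the negative side they were Pcdhgb4 at -0.27, Pcdhgb6 at -0.24, Pcdhga12 at -0.25, Pcdhga5 at -0.21 and Pcdhb14 at -0.15. Leaving out Tol cerebellum 2, or both libraries, also left 0 members called, though with 1 Tol cerebellum remaining its spread was taken to be that of the WT group.

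The difference between the Tol effects in cerebrum and thymus was tested in a fit over the 16 libraries of these organs. Of the 56 members, 0 were called by edgeR, beside 0.107% of 17774 genes, with 5 at an unadjusted p under 0.05, beside 16.5% of all genes, and 1 called by DESeq2, beside 2.78%. Only 19 of these members passed the filter within thymus, and the others entered through their brain counts. With at least 10 counts in every library, 14 members were left and 0 were called, beside 0.37% of 12983 genes. The lowest p belonged to Pcdhga8, with a log2 difference of effects of 1.61 ± 0.34 (SE, edgeR adjusted p = 0.075), and DESeq2 called this gene. On the positive side followed Pcdha12, Pcdhb21, Pcdhga1 and Pcdhb3, at 1.37, 0.999, 1.02 and 1.35, and on the negative side Pcdhb2, Pcdhgc4, Pcdhb22, Pcdhb14 and Pcdhac1, at -2.80, -0.71, -0.35, -0.33 and -1.13. Pcdha12, Pcdhb21, Pcdhga1, Pcdhb3, Pcdhb2 and Pcdhac1 had not passed the filter within thymus, so their fitted values carry little information on it.

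Genes around this pathway were counted from 4 lists. For WT cerebellum against WT cerebrum, their counts stand beside 25.6% of all genes called higher and 24.2% called lower. Among 22 regulators of the clusters (CTCF, cohesin, DNA methylation and repressor genes), 16 were higher and 2 lower in WT cerebellum than in WT cerebrum. The lowest p was that of Ehmt2, a histone H3 lysine 9 methyltransferase, which fell by 0.90 ± 0.07 (SE) on the log2 scale (edgeR adjusted p = 2.9e-05). Among 22 partners and signalling genes, 4 were higher and 14 lower, led by Ret, a receptor tyrosine kinase, at 2.97 ± 0.19 (SE, edgeR adjusted p = 1.4e-05). Among 16 non-clustered protocadherins and Fat cadherins, 3 were higher and 12 lower, led by Fat1 at 2.67 ± 0.16 (SE, edgeR adjusted p = 1.1e-05). Among 14 tested genes in and beside the clusters, 6 were higher and 3 lower, led by Zmat2 at -0.65 ± 0.07 (SE, edgeR adjusted p = 0.000152). The medians of these lists were 0.44, -0.64, -0.95 and 0.04 on the log2 scale, against 0.04 for all genes tested. Without WT cerebellum 2 the counts higher and lower were 18 and 2 for regulators, 4 and 14 for partners, 3 and 12 for non-clustered protocadherins, and 5 and 6 for neighbours. Of all 15993 genes tested there, 4144 were higher and 4340 lower.

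In WT thymus against WT cerebrum, 45.1% of all genes were called higher and 41.4% lower. Of the 22 regulators, 20 were higher and 2 lower, led by Rest, a repressor of neuronal genes, at 4.11 ± 0.07 (SE, edgeR adjusted p = 1.5e-11). Partners and signalling genes were mostly lower, 15 of 22 with 6 higher, led by Wasf1 at -7.68, and 14 of 16 non-clustered protocadherins were lower with 2 higher, led by Pcdh10 at -8.31. Of the neighbours, 9 were higher and 4 lower, led by Diaph1 at 1.81, so the low level of the members in thymus was not shared by most genes beside them. Against cerebellum, 42.8% of all genes were called higher in thymus and 41% lower. The counts higher and lower in thymus were 19 and 1 for regulators (19 and 2 without WT cerebellum 2), 8 and 13 for partners, 1 and 14 for non-clustered protocadherins, and 6 and 2 for neighbours, led by Rest at 3.71, Nckap1 at -3.12, Pcdh1 at -4.46 and Diaph1 at 2.36. Between Tol and WT, edgeR called 0 of 71 list genes in thymus, 0 of 74 in cerebrum, 0 of 74 in cerebellum and 0 of 74 in the difference of effects. At an unadjusted p under 0.05 there were 17, 7, 2 and 16 of them, beside 24.4%, 9.66%, 3.16% and 16.5% of all genes. DESeq2 called 6 in thymus, where it called 7.98% of all genes, namely Adam10, Dnmt3a, Mau2, Ndufa2, Pdcd10 and Wapl. It called 0 in cerebrum, beside 1.2% of all genes, and 0 in cerebellum, beside 0.054%. In the difference of effects, where it called 2.78% of all genes, it called 4, namely Adam10, Fat1, Mau2 and Ndufa2. Genes of lowest p were Mau2 at -0.28, Adam10 at -0.30, Pcdh17 at -0.34 and Ndufa2 at 0.43 in thymus. In cerebrum they were Stag1 at 0.24, Ptk2 at 0.23, Fat1 at 0.34 and Ndufa2 at -0.23, and in cerebellum Setdb1 at -0.32, Marcks at 0.47, Pcdh18 at 1.66 and Zmat2 at 0.14. For the difference of effects they were Mau2 at 0.30, Adam10 at 0.32, Fat1 at 0.62 and Ndufa2 at -0.67.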

How the data were processed

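RNA-seq tables for thymus, cerebrum and cerebellum hold estimated counts per gene, which the authors made with Salmon (version 0.14.1 in the submitters' processing notes, which also name edgeR 3.9 and GRCm38) and deposited as whole numbers. Table columns marked MRT were read as Tol. Members and gene lists were chosen with earlier results of these data known. Libraries were scaled by TMM, genes of low count were removed by filterByExpr, and groups were compared within each organ, or between WT organs, by quasi-likelihood tests in edgeR 4.0.16 (R 4.3.3) with Benjamini-Hochberg adjustment over all genes tested and a threshold of 0.05. DESeq2 1.42.0, other filters and scalings, a GC and length trend, a replicate block and leaving out libraries were alternatives. The edgeR tests between groups, but not that of the difference of effects, were tried on simulated counts. CPM per kilobase used the longest protein-coding transcript of GENCODE vM21, and 34465 of 34585 identifiers matched it. Detection floors cover counting error only. Of 31 pairs of replicates, none held identical values. Named members were the C-type genes, the highest of each subfamily in each WT organ and the 5 of lowest p in each direction, and of each list the gene of lowest p; other members named individually were chosen after their values were seen.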

Additional observations from a re-analysis of the deposited data

Results flagged for a closer look

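A library was marked where it stood apart from the other 3 of its group by Dixon's test, applied to the family and subfamily sums and to the named members with at least 3 counts in each library of the group. Of 171 such groups 5 were marked, while chance marks about 1 in 20, or 8.55. The summed level of the alternate alpha genes was 27.3 CPM per kilobase in Tol cerebrum 4, against 31.2 to 31.7 in the other Tol cerebra. Pcdhb8 was at 6.06 CPM in WT cerebrum 3, against 3.78 to 4.12. Pcdhga1 was at 16.4 CPM in Tol cerebrum 1, against 11.7 to 12.2. In Tol thymus 1, the deepest library, Pcdhgb1 was at 0.769 CPM, against 0.451 to 0.465, and Pcdhgb4 at 1.49 CPM, against 0.737 to 0.819.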

How the results depend on the processing

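Counts of 3 to 25 per library limit Pcdhga8 in thymus, and 2 Tol cerebella, 1 of them against its tissue label, limit the cerebellum. For Tol against WT thymus, 0 members were called as reported, 1 each with DESeq2, without a filter and with all 22 libraries in one fit, and 0 to 3 when a library was left out. Of all genes, those fits called 7.98% with DESeq2, 0.484% without a filter, 0.153% with all 22 libraries and 18.2% without Tol thymus 1, the fit with 3 members. Pcdhgc4 was called with DESeq2 (0.89 on the log2 scale) and without a filter (0.90), and Pcdhga8 with all 22 libraries (-1.64). Leaving out libraries, Pcdhgc4 ranged from 0.74 to 1.02, Pcdhga8 from -1.81 to -1.47, Pcdhgc3 from -0.43 to -0.23, Pcdhga9 from -0.063 to 0.56 and Pcdhgc5 from -0.48 to 0.35. For the difference of Tol effects, DESeq2 called 1 member (Pcdhga8, 1.64) and 0 to 1 were called on leaving out libraries, with Pcdhga8 at 1.44 to 1.77 and Pcdhac1 at -1.50 to 0.24. Of all genes, DESeq2 called 2.78% there, and the fit without Tol thymus 1, which called 1 member, 6.22%. With at least 10 counts in every library, 15 members were called in each thymus and brain comparison, because fewer were tested, and leaving out libraries kept both counts at 56. In WT cerebellum against WT cerebrum, leaving out libraries gave 17 to 21 calls, 6 to 9 higher and 10 to 15 lower. Those fits called 6737 to 8484 genes of 15975 to 16211 tested. Pcdhac2 there ranged from -0.20 to 0.018, and was 0.031 without both WT cerebrum 1 and WT cerebellum 2, a choice made after the data were seen.

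In Tol against WT cerebellum, leaving out libraries moved Pcdhac1 from -1.37 to 0.52, Pcdhac2 from -0.51 to 0.20, Pcdhgc3 from -1.02 to 0.46, Pcdhga12 from -0.75 to 0.11, Pcdhga5 from -0.55 to 0.0505 and Pcdhgb6 from -0.65 to 0.073. Without both Tol cerebellum 2 and WT cerebellum 2, also chosen after the data were seen, Pcdhac1 was 0.31, Pcdhac2 0.067, Pcdhga12 0.028 and Pcdhgc3 0.30. The causes were not tested. With the replicate number as a block, 22 members were called in WT cerebellum against WT cerebrum, 8 higher and 14 lower, beside 7392 of 15877 genes. That block gave 0 members in each Tol comparison, and Pcdhac1 was 0.0092 in Tol against WT cerebellum. Same-numbered libraries deviated together by correlations of -0.226 to 0.563, mostly under 0.1, so the numbers were not read as pairs.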

Other observations

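Pcdhgb8, annotated as a polymorphic pseudogene of the gamma cluster and so no member, was at 2.34 to 5.02 CPM in WT cerebrum, 4.58 to 8.22 CPM in WT cerebellum and 0.0517 to 0.484 CPM in WT thymus. The readthrough entries Gm37013 and Gm37388, which share exon bases with members, were at no more than 0.965 CPM in any library, and Gm42416 at no more than 0.127 CPM.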
